A study of Equus caballus with 19 samples.

Results

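Of 799 genes that could be named through a RefSeq accession on a horse expression array, 111 were not well above background in venous blood on any of 19 arrays. The members were chosen by the detection flag of the scanner software, which marks each spot as well above background or not. A gene was taken when every spot of every probe lacked the flag on every array. The interleukin, prostaglandin synthase, bone morphogenetic protein and inhibin genes IL1A, IL6, PTGS2, BMP4, BMP7 and INHBA were set aside, and none of these 6 would have met the rule, so leaving them out removed no gene. Because the flag selected the genes, their low signal is a description and not a finding. The 111 genes were covered by 166 probes, each spotted once.

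Venous blood carries RNA mainly of blood cells, such as white cells and platelets. Peptide hormones, milk proteins, contractile proteins and neurotransmitter receptors are made chiefly in organs such as the pituitary, gut, mammary gland, muscle or brain, though transcripts of some of them are also found in blood cells. Cytokine genes such as IL2 and IL17A are a different case, since blood lymphocytes transcribe them briefly when stimulated.

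The samples came from prepubertal Welsh foals aged 10 ± 1 months when the treatment began. The 9 control horses (6 males and 3 females) lived in individual stalls for 12 weeks without physical contact with other horses. The 10 EE-treated horses (4 males and 6 females) had environmental enrichment for the same 12 weeks, with larger stalls, group life at pasture, varied feed and changing objects, scents and sounds. Whole blood was taken from each horse at the end of treatment and labelled with 1 dye, and 1 array was made per horse.

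The labelled tissue was checked first. Of the listed blood genes, 21 were on the array under a RefSeq name, and none was among the undetected genes. Alpha and beta globin (HBA2, HBB), the T cell surface gene CD2 and the monocyte receptor CD14 were well above background on all 19 arrays. So were the platelet integrin ITGA2B and beta-2-microglobulin (B2M), and 18 of the 21 markers in all. The anion exchanger SLC4A1 of the red cell membrane and the platelet integrin ITGB3 passed on 2 arrays each, and CD28 passed on 18. The number of probes per gene bore on who met the rule. Among genes with 1 probe 18.7% (82 of 439) were undetected, against 11.1% (18 of 162) with 2 probes and 5.56% (11 of 198) with 3 or more. Counted by probe, 23.9% of the 1781 probes of named genes were never well above background, against 20.2% of all 43384 probes on the array. Undetected genes made up 13.8% of genes with a curated accession and 14.1% of genes with a predicted one.

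The rule left members close to its edge. Inside it, neuronatin (NNAT), an imprinted membrane protein of the developing brain, was positive and significant against the background, a weaker flag, on all 19 arrays. Its background-subtracted signal had a lowest, median and highest value of 2.29, 4.28 and 6.42 scanner intensity units in control horses and of 1.995, 4.43 and 9.94 in EE-treated horses. The 2 ranges overlapped, and the highest value belonged to an EE-treated horse. The transferrin receptor TFRC, which brings iron into dividing and haemoglobin-making cells, carried the weaker flag on 15 arrays. So did 1 probe each of carbonic anhydrase CA12 and of the neuronal ubiquitin hydrolase UCHL1, and LOC100065223, which has no assigned function, followed with 13. At the other end, 16 of the 111 genes had no positive and significant spot on any array, among them alpha-fetoprotein (AFP), the gonadotropin-releasing hormone receptor GNRHR, the monoamine oxidase MAOA, the glucose transporter SLC2A2, the matrix protease MMP3 and IL9. The highest processed signal of a member ranged from 21.5% to 124% of the lowest signal that earned the flag on the same array, and it exceeded 100% in 10 genes, because the flag is set spot by spot.

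Just outside the rule stood 60 genes with 1 flagged spot on 1 array. They included hormones and hormone enzymes (GH1, PRL, LEP, RLN, CYP17A1, HSD3B2), milk whey and casein genes (CSN3, LGB1, LGB2), liver and plasma genes (C9, RBP4, BCHE, CYP2A13, CYP3A97), and genes of seminal plasma, germ cells or placenta (BSP1, BSP2, ASZ1, PAG). Nerve and sense genes among them were BDNF, CALB1, CHODL, LRRC4, LRRN1, MAOB, NEGR1, NKAIN2, EQUCABV1R901, EQUCABV1R903, EQUCABV1R911, EQUCABV1R914, EQUCABV1R924 and EQUCABV1R929. Growth, matrix and signalling genes included COL5A2, EFNB2, FGF7, HAPLN1, HPGD, KITLG, PTGFR and WNT2. Others were CCL16, CXCL6, E2F7, FABP2, FILIP1L, GJB1, GPR33, PLS3, S100A7, S100G, SLC10A6, TYRP1, ZCCHC13, LOC100034242, LOC100061179, LOC100063838, LOC100068895, LOC100069804 and LOC138915076. The flagged spot of these 60 genes had a lowest, median and highest background-subtracted signal of 6.27, 16.03 and 283 units, against 4.28 units as the median of the highest signal on the other 18 arrays. The nearest to the edge was the whey protein gene LGB1, at 6.39 units in 1 control horse and at most 4.68 units in any other horse. Farthest from it, the lectin CHODL read 283 units in 1 control horse and at most 2.25 units elsewhere, so its detection rested on 1 spot. Single flags were spread over every horse, from 1 gene in each of 2 control horses and 1 EE-treated horse to 7 genes in 1 horse of each group.

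In whole blood, fewer cells of a type and less RNA per cell cannot be told apart, and this holds for every level given here. The undetected genes lay at the level of the background that the scanner software subtracted, which was not the local background alone. Their median raw signal ran from 23 to 27 units over the 19 arrays, against 17 to 24 units for the median local background. Across arrays, the median background-subtracted signal of their 166 spots had a lowest, median and highest value of -0.560, 0.110 and 0.576 units in control horses and of -0.500, 0.0413 and 0.583 units in EE-treated horses. The groups overlapped almost completely. The detected named genes had array medians of 42.8, 57.8 and 76.2 units in control and of 33.4, 52.6 and 87.5 units in EE-treated horses. The 153 negative control spots, which are designed to match no transcript, had array medians between -2.37 and -1.07 units, below those of the undetected genes on every array. Between 0 and 4 of these control spots per array were themselves well above background, the brightest at 225 units. Positive and significant flags were likewise more frequent in the undetected genes, at 21.5% of 3154 spot readings, than in the negative control spots, at 4.06%. Whether that gap reflects trace transcripts or weak binding of other RNA was not tested.

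**Figure D1:**
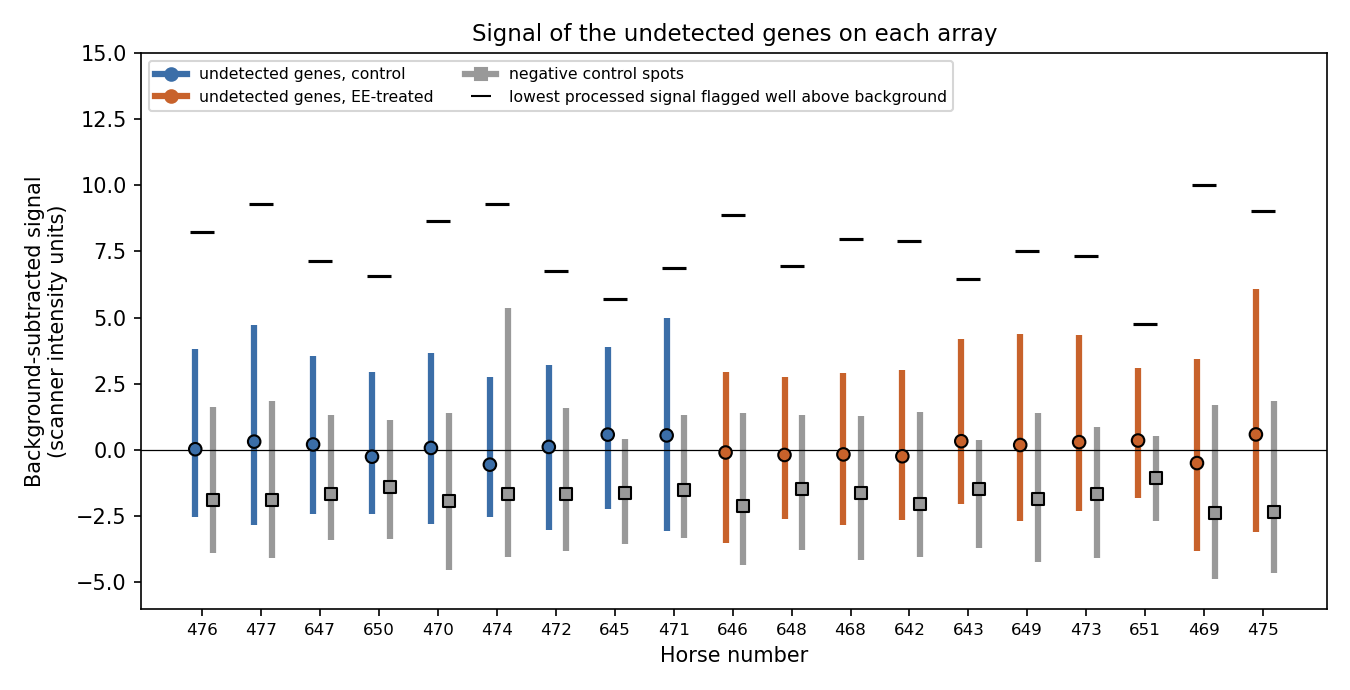
Background-subtracted signal (vertical axis, scanner intensity units) of the 166 spots of undetected genes (circles) and of the 153 negative control spots (squares) on the array of each horse (horizontal axis, control horses first). Markers are medians, bars run from the 5th to the 95th percentile, and dashes give the lowest processed signal marked well above background; the circles lie between -0.560 and 0.583 units.

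Most of the values were not measurements in the usual sense. On 2477 of the 3154 readings (78.5%) the spot was not positive and significant. Over all non-control spots without the weaker flag, 99.98% of processed signals lay within 0.5% of the spot's own error estimate. The same held for the negative control spots, of whose readings 95.9% lacked the weaker flag. Most log2 values of undetected genes thus restated an error estimate. For this reason differences between the groups are given in log2 units between background-level values, and no fold is stated for any member.

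Pituitary and hypothalamic genes came first in the lists by tissue. Of 8 on the array, 3 were undetected: the beta subunit of thyroid-stimulating hormone (TSHB), GNRHR, and LOC100033829, which carries the synonym FSHB, the beta subunit of follicle-stimulating hormone. LOC100033829 had a lowest, median and highest background-subtracted signal of -0.424, 1.21 and 3.36 units over the 19 horses, averaged over its 2 probes. TSHB read -2.23, 0.0507 and 3.64 units over its 3 probes. The other 5 genes of the list were detected somewhere, among them CGA, FSHR, LHB and GH1, but only 2 of them on all arrays.

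Among 16 genes of gut, pancreas and other peptide hormones, 4 were undetected. Parathyroid hormone (PTH), which raises blood calcium, read -1.67, -0.885 and 0.724 units over 4 probes, and inhibin alpha (INHA), a gonadal brake on follicle-stimulating hormone, read -1.60, 1.10 and 4.79 units. The parathyroid hormone-like peptide PTHLH and the endothelin receptor EDNRA completed the group. GAST, FST, NPPA and EDN2 were among the 12 detected genes, of which 3 passed on all arrays. In steroid synthesis, 1 of 13 genes was undetected, the adrenal and gonadal repressor NR0B1, at -1.78, 0.354 and 2.89 units. The detected 12 included HSD17B4, HSD17B1, ESR1 and STAR.

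Reproductive genes were undetected in 5 of 13 cases. They were the epididymal and testicular sperm proteins CRISP1 and CRISP2, the sperm glycolytic enzyme PGK2, the prostatic kallikrein KLK1E2 and the uterine lipocalin P19, which the mare secretes in early pregnancy. CRISP1 read -1.16, 2.17 and 4.87 units and KLK1E2 read -0.807, 0.926 and 3.51 units. PTGER2, PRM1, LOC100033916 (synonym SCGB1A1) and CRISP3 were among the 8 detected. Beta-casein (CSN2) was the single undetected gene of 6 milk genes, with -3.12, -0.419 and 2.47 units, while of the other 5 LTF was detected on all arrays, CSN1S1 on 3 arrays and CSN3, LGB1 and LGB2 on 1 array each. A further 8 members with known roles in germ cells, the reproductive tract or the placenta, grouped after the members were known, were GTF2A1L, OAZ3, STK31, DYDC1, MAMLD1, the epididymal secretory protein RNASE10, the prostaglandin F synthase PGFS and the placental gene PEG10.

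The liver and plasma list had 2 undetected genes among 17. The fetal albumin AFP read -5.76, -1.05 and 1.04 units and the drug-metabolising cytochrome CYP3A95 read -1.85, -0.964 and 0.856 units. Neither had a positive and significant spot on any array. CYP2D50, CYP3A89, SERPINF1 and CYP2C92 were among the 15 detected genes, of which 2 passed on all arrays and 4 on 1 array each. SULT2A1, which sulfates steroids in liver and adrenal, and the threonine dehydrogenase TDH were undetected members outside the fixed lists.

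Of 17 muscle genes, 4 were undetected: the fast myosin heavy chains MYH1 and MYH4, myoglobin (MB), the oxygen store of muscle, and the mitochondrial coactivator PPARGC1A. MB read -0.0824, 2.15 and 6.08 units, and MYH1 read -1.58, 0.0348 and 2.16 units over 2 probes. FABP3, ATP2A2, PYGM and TNNI3 were among the 13 detected muscle genes, 8 of which passed on all arrays. In cartilage, bone and matrix, 5 of 24 were undetected, among them the cartilage collagen COL11A1, the protease MMP3, the hyaluronan synthase HAS2 and the tendon glycoprotein tenomodulin (TNMD). TNMD read -0.302, 1.35 and 4.37 units and COL11A1 read -2.64, -1.44 and 2.45 units. TIMP1, MMP9, MMP1 and SCX were among the 19 detected. In skin and pigment cells, 1 of 8 was undetected, the agouti signalling protein ASIP, which turns pigment synthesis from black to red, at -3.24, -0.286 and 3.43 units; the remaining 7 included MITF, PMEL, MC1R and KIT. Other members of skeleton, heart and connective tissue, grouped afterwards, were CLEC3A, FRZB, TNNI3K, RSPO2, SDC2 and RBMS3.

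Among the fixed lists by tissue, the brain and nerve list had the most undetected genes, 7 of 18. They included the astrocyte filament GFAP, the serotonin transporter SLC6A4, the noradrenaline-making enzyme DBH, the serotonin receptor HTR2A, MAOA and the calcium buffer parvalbumin (PVALB). DBH read -5.04, -0.712 and 7.36 units, and MAOA read -5.85, -2.43 and -0.306 units, below the subtracted background in every horse. PRNP, HTR1B and HTR1A were among the 11 detected genes. The reproductive list had 5 of 13 undetected, and the share over all 799 named genes was 13.9%. The 7 undetected brain and nerve genes had 9 probes in all, and genes with fewer probes met the rule more often. A further 12 members of nerve cells and synapses, grouped after the members were known, included GNAO1, NNAT, UCHL1, LRRTM3, KCNH5, CELF3, GPR6, EFNB3, EPHB1, CTTNBP2 and PRICKLE1. Among the senses, neither of the 2 listed eye genes on the array, CRYAA and OPN1LW, was undetected. Vomeronasal receptors, by which horses sense pheromones, stood on the array with 20 genes: 8 were undetected, 6 had 1 flagged spot on 1 array, and 1 passed on all arrays. The undetected ones were EQUCABV1R908, EQUCABV1R910, EQUCABV1R915, EQUCABV1R919, EQUCABV1R920, EQUCABV1R921, EQUCABV1R930 and EQUCABV1R933, and these close relatives share sequence, so their probes need not be independent. Of 2 odorant receptors, OR6C328 was undetected.

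Epithelial genes were undetected in 4 of 13 cases. They were the water channel AQP2, the intestinal sodium and glucose transporter SLC5A1, the liver and pancreas glucose transporter SLC2A2 and the enteric defensin DEFA5L. AQP2 carries the synonym aqp5 and was read by 1 probe. DEFA5L read -2.31, 0.936 and 3.18 units and SLC2A2 read -3.75, -1.47 and 0.347 units. SFTPB, PLA2G2A and SLC2A5 were among the 9 detected. Secretory and transport genes outside the fixed list were latherin (LATH), the surfactant protein of horse sweat and saliva, the salivary carbonic anhydrase CA6, CA12, CLCA1, the defensin DEFB4B, the sodium exchanger SLC9A2, the calcium channel TRPV5, the vitamin D hydroxylase CYP27B1 and the splicing regulator ESRP1. None of the 14 vessel, fat and growth factor genes was undetected, SELP, TGFB1, PECAM1 and IGF2 among them.

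Cytokines formed the list nearest to blood itself. Of 34 on the array, 5 were undetected: the T cell growth factor IL2, IL9, the interleukin-12 subunit IL12B, IL17A and the type I interferon IFNA1. IFNA1 read -0.984, 1.08 and 4.94 units over 2 probes, and IL9 read -4.76, -2.21 and 0.871 units. CCL5, IL18, TNF and IL15 were among the 29 detected genes, and 15 of those passed on all arrays. IL2 rested on 5 probes, as did CA12, CA6, CYP27B1, RNASE10 and UCHL1, the largest probe numbers among the members. All 5 IL2 probes stayed below the flag on all arrays and were positive and significant on 20 of 95 readings, at -1.51, 0.437 and 2.44 units. The corresponding numbers of positive readings were 45 of 95 for UCHL1, 28 for CA12, 16 for CA6, 13 for CYP27B1 and 9 for RNASE10.

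Some members have known roles in blood cells. They were IFN-OMEGA1, the natural killer receptor LY49D, the killer cell adaptor SH2D1B, the lipid-presenting molecule CD1D, the embryonic globin HBZ and TFRC. TFRC had a lowest, median and highest signal of -0.383, 3.55 and 6.89 units and was read by 1 probe. HBZ read -2.88, -0.528 and 4.65 units. The general cell genes MED14, CDC25A and GSDME and the developmental regulators TFAP2A, RARB and ERBB4 were members too. For such genes the flag says that these probes gave no signal well above background, and not that the transcript was missing. The last 10 members, C22H20orf141 and LOC100034175, LOC100053653, LOC100056428, LOC100061246, LOC100064462, LOC100065223, LOC100066501, LOC100068176 and LOC100072739, were placed in no group.

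**Figure D2:**
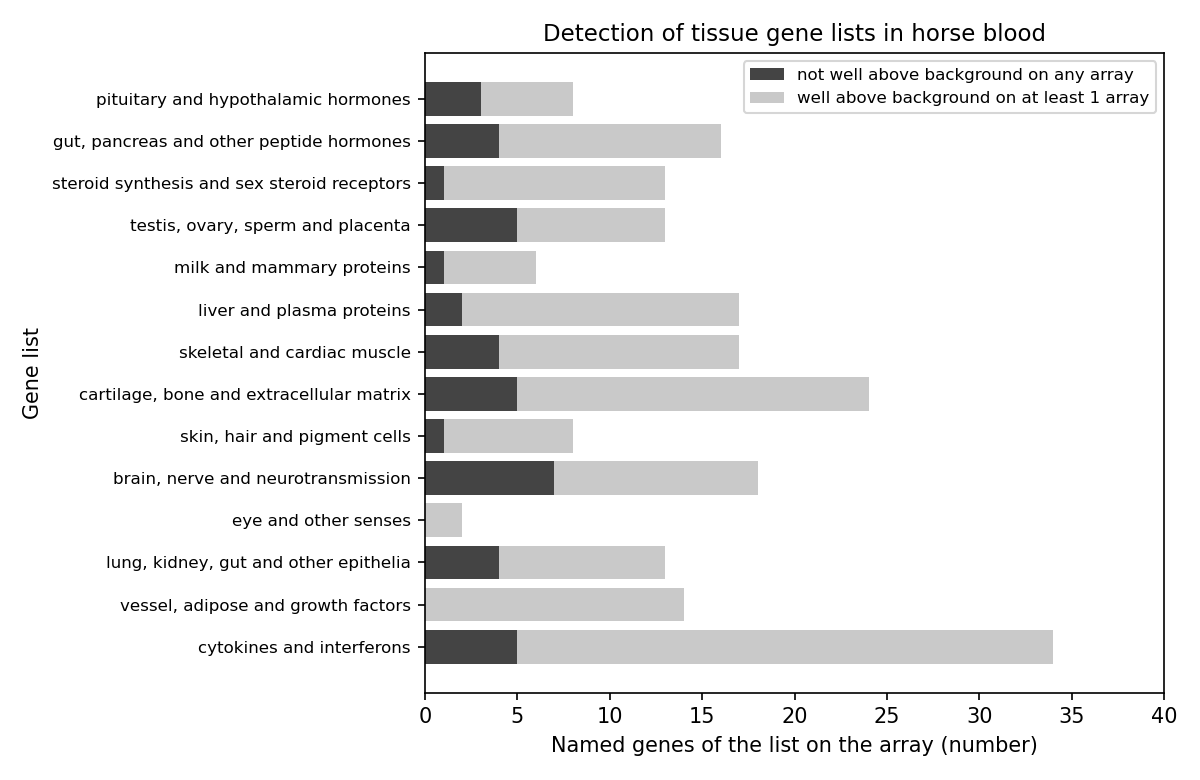
Number of named genes on the array (horizontal axis) in each of 14 tissue lists (vertical axis), divided into genes not well above background on any array (dark) and genes well above background on at least 1 array (light). By this rule undetected genes were a minority in every list, from 0 of 14 growth factor genes to 7 of 18 brain and nerve genes. The light part includes genes that passed on 1 array only. These were 4 of 13 reproductive, 3 of 6 milk, 2 of 8 pituitary, 2 of 18 brain and nerve and 0 of 17 muscle genes.

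The comparison of the groups asked whether blood expression differed after 12 weeks of enrichment. With the arrays scaled to a common 75th percentile, the median scaled log2 signal of the undetected genes had a lowest, median and highest value of 0.21, 0.57 and 1.30 in control horses and of 0.35, 0.87 and 1.26 in EE-treated horses. The ranges overlapped over most of their length. The median fitted difference over the 166 probes was 0.18 log2 units higher in EE-treated horses, with 88.0% of probes above 0. The same median was 0.10 over the probes of detected named genes and 0.06 over all 43384 probes. It was 0.20 over the negative control spots, and every one of those 153 spots lay above 0. Most values of both sets were error estimates, so the likeness of 0.18 and 0.20 is not taken here as separate evidence on the genes, and its cause was not tested. The background-subtracted signals given above, which hold no such substitute, overlapped between the groups.

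The size of that shift was also the size of the scaling. The 75th percentile before scaling had a lowest, median and highest value of 448, 604 and 741 units in control horses and of 346, 502 and 814 in EE-treated horses. Dividing by it added 0.19 log2 units more, on average, to the EE-treated arrays than to the control arrays. Without scaling, the median difference was -0.0090 for the undetected genes and 0.0087 for the negative control spots, while it was -0.12 over all probes. The array medians of the undetected genes had an SD of 0.32 log2 units within a group. That is a spread of single arrays and not of a difference between groups, so it does not judge the shift of 0.18.

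**Figure D3:**
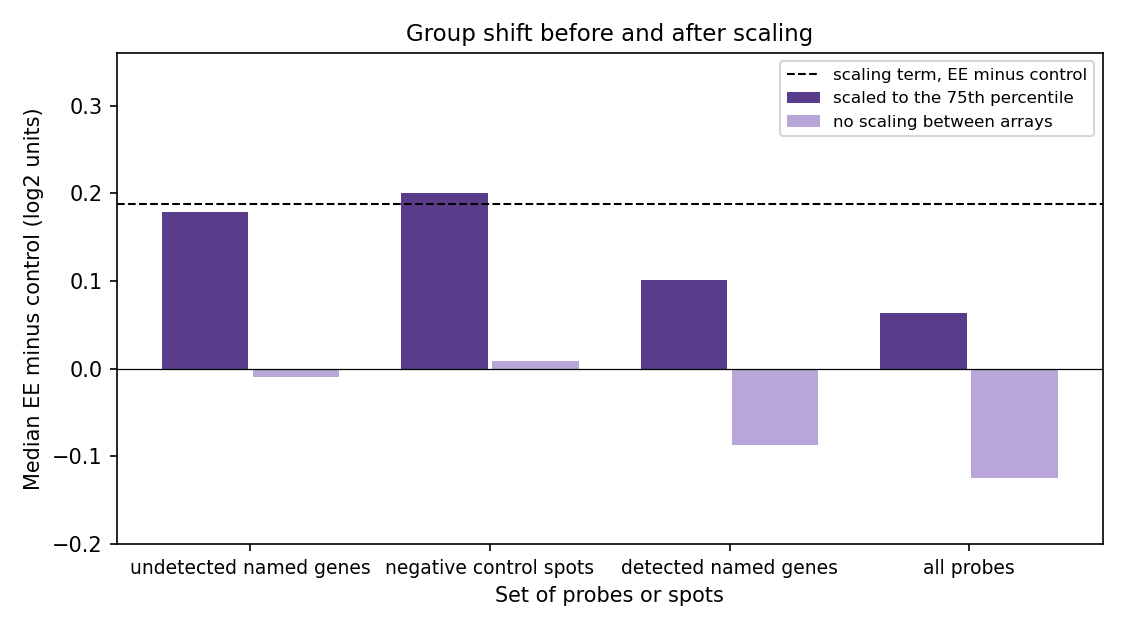
Median EE minus control difference (vertical axis, log2 units) of undetected named genes, negative control spots, detected named genes and all probes (horizontal axis), with the arrays scaled to the 75th percentile (dark bars) and not scaled (light bars). The dashed line marks the mean scaling difference of 0.19; the scaled undetected genes (0.18) and negative control spots (0.20) lie at it, and unscaled both lie near 0.

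Arrays were processed on 5 slides, each holding both groups, and slide 5 was scanned separately from the rest. With slide as a block the median difference of the undetected genes was 0.19. Within slides 1 to 5 it was 0.62, 0.30, -0.51, 0.26 and 0.44 with scaling, so it pointed the other way on slide 3. The negative control spots gave 0.62, 0.33, -0.52, 0.29 and 0.43 on the same slides. Why the 2 sets lay so close on each slide was not tested. Without scaling the undetected genes gave -0.12, 0.19, -0.40, -0.04 and 0.44, and the negative control spots -0.12, 0.22, -0.40, -0.01 and 0.44. Arrays thus differed in these processed values beyond the scaling, and the cause was not tested. Slide 5 held 1 control and 2 EE-treated horses, the other slides 2 of each. Position on the slide cannot be told apart from group, because control horses lay at positions 2 and 4 and EE-treated horses at 1 and 3, except 1 EE-treated horse at position 2.

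**Figure D4:**
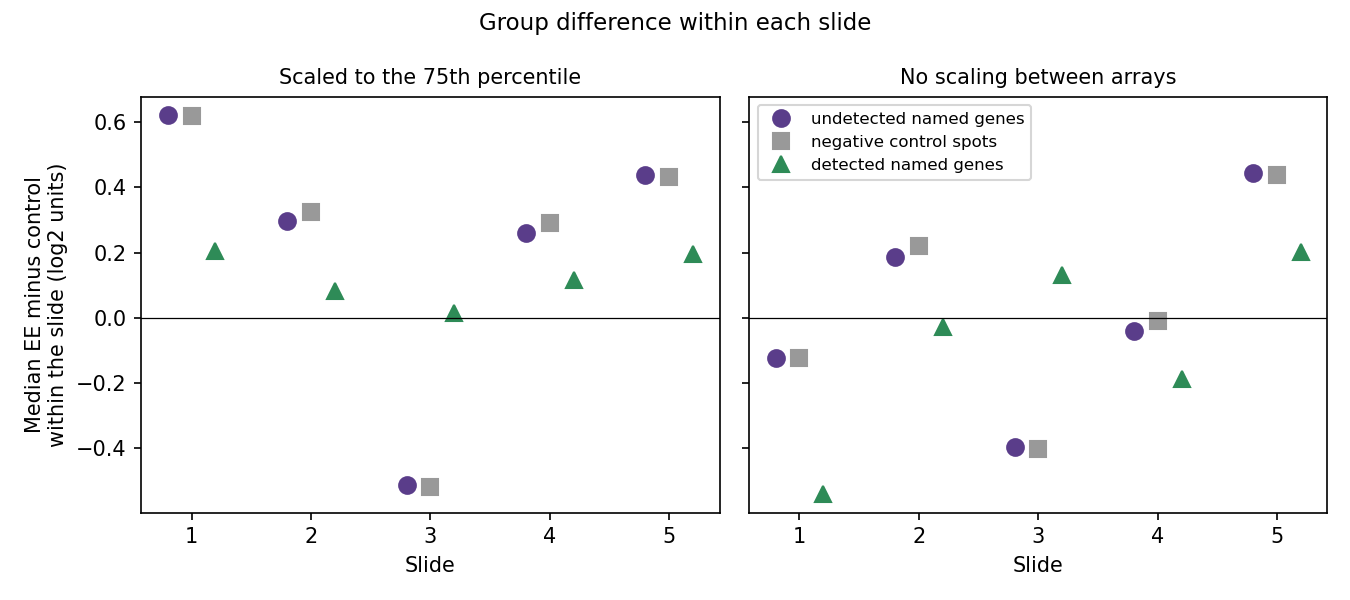
Median EE minus control difference (vertical axis, log2 units) within each of 5 slides (horizontal axis) for undetected named genes (circles), negative control spots (squares) and detected named genes (triangles), with scaling (left) and without (right). Circles and squares nearly coincide on every slide, at 0.62 on slide 1 and at -0.51 and -0.52 on slide 3 with scaling.

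Probe by probe, 5 of the 166 probes of undetected genes passed an unadjusted p of 0.05 in limma, against 11.7% of all probes. All 5 were higher in EE-treated horses, where the array-wide share was 7.44%, and none was lower, where it was 4.24%. None reached p of 0.005 together with a ratio above 1.2 or below 0.8, against 1.82% of all probes. No probe of the array passed an adjusted p of 0.05 in limma (0% of 43384). A single member probe passed the unadjusted limit without scaling, against 8.15% of all probes. The members' share lay below that of the array under each of these limits for which any probe was called. All probes never well above background also had lower shares than the array in limma, so a low share was not particular to the members. They were 5.85% at an unadjusted p of 0.05, 0.491% at p of 0.005 with the ratio limits, and 1.59% at 0.05 without scaling.

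Latherin gave the smallest p. Its LATH probe read -1.13, 0.582 and 1.79 units (lowest, median, highest) in control horses and -0.234, 2.003 and 4.25 units in EE-treated horses. The upper part of the EE-treated range lay beyond the control horses, and the probe was positive and significant in 5 EE-treated and 0 control horses. The scaled log2 difference was 0.64 (SE 0.22), with a limma p of 0.00871 and an adjusted p of 0.299, and it was 0.45 without scaling. This was the member probe still under an unadjusted p of 0.05 without scaling, at p = 0.0215 in limma. It was not under that limit in limma with normexp correction (0.22, p = 0.0952) or with the raw median signal unscaled (0.073, p = 0.261). LATH was covered by 4 probes, of which only this one passed the unadjusted limit.

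The other 4 probes lost their unadjusted call in limma without scaling. SULT2A1 (p = 0.0556) and EDNRA (p = 0.0760) also lost it in limma with sex as a covariate. Their differences stayed about as large in that fit, at 0.42 and 0.38, against 0.46 and 0.42 without the covariate. EFNB3, a ligand that guides growing axons, read 0.0103, 1.30 and 3.33 units in control and -0.108, 1.53 and 3.78 in EE-treated horses, with a scaled difference of 0.45 (SE 0.17, limma p = 0.0149) and p = 0.228 unscaled. SULT2A1 read -0.318, 1.205 and 2.59 units in control and -1.53, 1.98 and 4.13 in EE-treated horses, with a difference of 0.46 (SE 0.19, limma p = 0.0292) and p = 0.163 unscaled. In both genes the EE-treated horses spread around the control horses on either side. EDNRA, the receptor through which endothelin narrows vessels, read -1.77, 0.110 and 2.29 units in control and -1.84, 0.510 and 5.83 in EE-treated horses, with a difference of 0.42 (SE 0.19, limma p = 0.0446) and p = 0.329 unscaled. It was the one gene of the fixed lists with an unadjusted call. RNASE10 read -0.0886, 0.479 and 1.40 units in control and -1.15, 1.13 and 2.53 in EE-treated horses on 1 of its 5 probes, with a difference of 0.37 (SE 0.16, limma p = 0.0294) and p = 0.190 unscaled. In limma these 4 probes had adjusted p from 0.326 to 0.416.

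A different RNASE10 probe was lower in EE-treated horses, without passing the unadjusted limit. Its direction, and that of CA12, IFNA1 and STK31 below, turned with the raw median signal scaled and with normexp, to differences from 0.073 to 0.19. It read -1.82, 1.80 and 6.53 units in control and -1.24, -0.341 and 1.04 units in EE-treated horses, a scaled difference of -0.28 (SE 0.25, limma p = 0.276). CA12 had the smallest p among probes lower in EE-treated horses, with 0.971, 5.80 and 9.27 units in control and 0.351, 3.23 and 8.44 units in EE-treated horses and a difference of -0.47 (SE 0.33, limma p = 0.169). The groups overlapped over nearly the whole range in CA12, but less so without slide 5, whose control horse read 0.971 units and whose EE-treated horses read 5.62 and 8.44 units. On the 16 arrays of the other slides, control horses ran from 3.49 to 9.27 units and EE-treated horses from 0.351 to 6.60 units. This selection was made after seeing the data and left out horses that went the other way. The difference there of -0.88 (limma p = 0.00442) is therefore a description and not a test. No member passed an adjusted p of 0.05 in limma on those arrays either. IFNA1 and STK31 were also lower, with differences of -0.24 and -0.27 and limma p of 0.265 and 0.361. STK31, a kinase of male germ cells, read -3.52, -0.0280 and 10.0 units in control and -3.09, -1.26 and -0.287 units in EE-treated horses, and its 6 highest horses were all control horses. The type I interferon probe of IFNA1 read 0.0257, 2.08 and 5.10 units in control and -0.478, 1.12 and 3.42 in EE-treated horses. In both genes the groups overlapped.

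**Figure D5:**
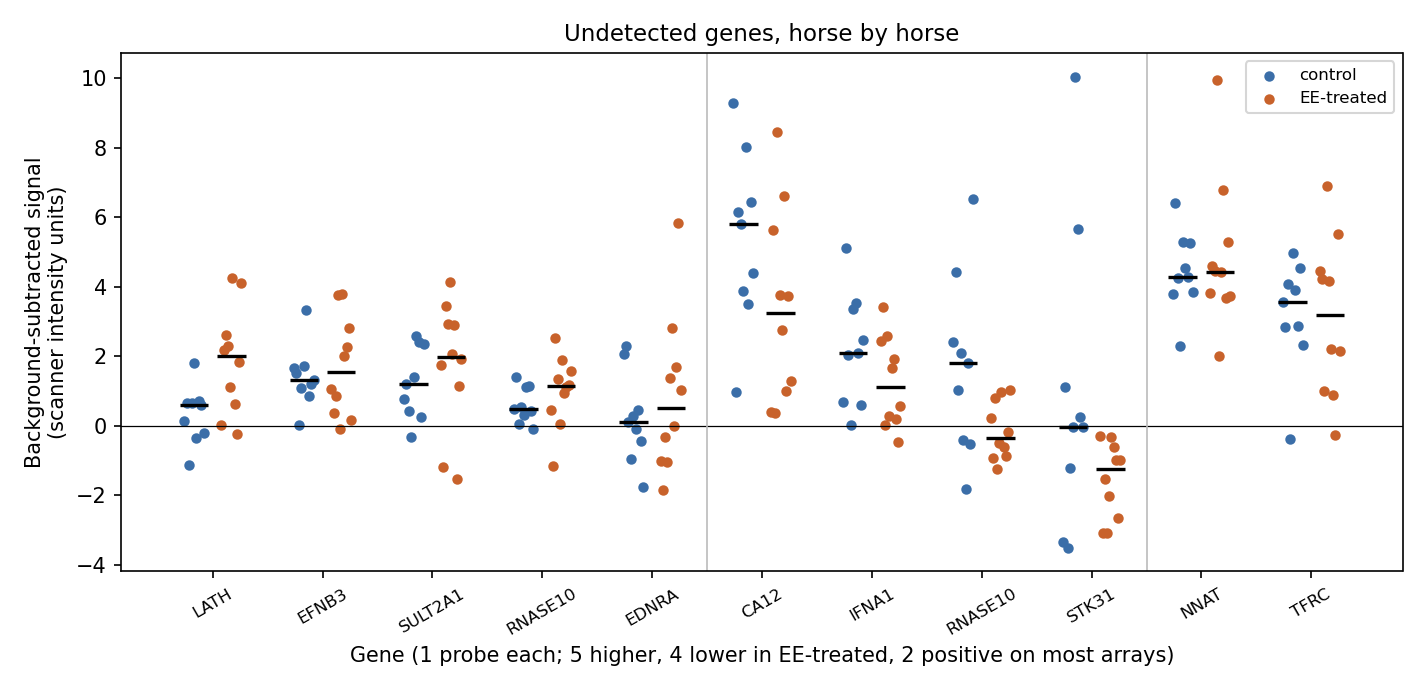
Background-subtracted signal (vertical axis, scanner intensity units) of single probes of undetected genes (horizontal axis) in control and EE-treated horses, 1 point per horse, with the group median as a bar. From left to right are the 5 probes of smallest p higher in EE-treated horses, 4 that were lower, and NNAT and TFRC. The 4 lower probes had limma p from 0.169 to 0.361. The groups overlap in each probe shown, and RNASE10 appears once on either side.

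Males and females were compared with treatment in the fit. The median difference over the 166 probes was 0.12 log2 units higher in males, against 0.02 over all probes and 0.13 over the 91 negative control spots that were read on every array. Without scaling it was 0.31, against 0.21 over all probes and 0.30 over all probes never well above background. The unscaled count at an unadjusted p of 0.05 in limma was 64 of the 166 probes (38.6%), above the 14.4% of all probes and near the 41.9% of all probes never well above background. With scaling, 4 of the 166 probes passed an unadjusted p of 0.05 in limma, against 5.97% of all probes, and all 4 were higher in males (2.84% of all probes higher, 3.12% lower). None passed p of 0.005 with the ratio limits, against 0.579% of the array, or the adjusted limit in limma, which 0.053% of the array passed. UCHL1 held the first and the third smallest p. Its first probe read -2.04, 1.71 and 4.47 units in males and -1.13, 0.327 and 1.48 units in females, a scaled difference of 0.53 (SE 0.18, limma p = 0.00946, adjusted p = 0.829). HBZ read -2.08, 0.275 and 4.65 units in males and -2.88, -1.03 and 1.71 units in females, a difference of 0.39 (SE 0.18, limma p = 0.0434). The other UCHL1 probe read 0.0517, 1.81 and 8.78 units in males and -0.507, 1.44 and 2.89 in females, a difference of 0.50 (SE 0.23, limma p = 0.0465). The sexes overlapped in all 3 probes. HBZ lost its unadjusted call in limma with quantile normalization (0.25, p = 0.118) and with no covariate (0.32, p = 0.0868). The other UCHL1 probe lost its call in limma with no covariate (0.41, p = 0.0949).

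The log2 values deposited by the authors showed the same genes in another form. On each array those values ended in a lowest value shared by many probes, 31.5% to 41.1% of the array. With the scaling undone, that value was a processed signal of 10 units on every array. All 166 probes of undetected genes sat at it on 18 arrays, and 165 on the array of 1 EE-treated horse, where NNAT alone stood above it at 2.79. The shared lowest value averaged 3.11 in control and 3.29 in EE-treated horses. Every undetected probe except that of NNAT therefore carried a group difference of 0.19 there without any difference in measured signal. Between 516 and 666 of the 1615 probes of detected named genes sat at the same value on an array.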

How the data were processed

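Intensity values came from 19 scanner files deposited by the authors: 1-dye arrays of whole blood, with background-subtracted and processed intensity and detection flags per spot. The file headers give Feature Extraction 10.7.3.1 and the submitters' processing notes 9.1. The authors also deposited log2 values scaled to a 75th percentile of 500, whose column medians ran from 5.08 to 5.28 and which were used only as an alternative. Of 3275 probes with a RefSeq accession, 1781 were named through the RefSeq table of the TB-T2T assembly; the rest were not used as named genes. Processed signals were scaled to a 75th percentile of 500 over non-control spots, taken to log2 and averaged per probe, with outlier spots left out. limma 3.58.1 in R 4.3.3 was fitted on all 43384 probes, with Benjamini-Hochberg adjustment, and tested on simulated data. Genes with values were named by a rule: the extremes of each list, the smallest p, the edges of the detection rule and the largest probe numbers. Not every gene so picked, and not every member, is named. Synonyms were used only for symbols starting with LOC. Members and lists were chosen with earlier results of these data known. The number of arrays limits the precision. Alternatives tried were no scaling, quantile normalization, median centring, raw median signal, normexp, deposited values, outlier spots kept, sex as a covariate, slide as a block and other detection rules.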

Additional observations from a re-analysis of the deposited data

Results flagged for a closer look

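Among 36 genes named with values and 4 array summaries, tested in both groups (80 sets of values), 5 had a horse far from the others of its group. Chance alone marks about 1 in 20 sets. In background-subtracted units, 1 EE-treated horse stood high for DBH at 7.36, with the next horse at 1.21, and the same horse for INHA at 4.79, with the next at 1.79. Another EE-treated horse stood high for MB at 6.08, with the next at 2.74. A further EE-treated horse stood low for AFP at -5.76, with the next at -2.49, and 1 control horse stood low for TFRC at -0.383, with the next at 2.33. No difference of the treatment effect between males and females passed the adjusted limit in limma for a member, the smallest adjusted p being 0.983; 2 of the 166 member probes (1.205%) had an unadjusted p under 0.05, against 3.05% of all probes.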

How the results depend on the processing

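No paired analysis was possible because the groups share no horse. The main count of 5 probes at an unadjusted p of 0.05 in limma became 1 without scaling (8.15% of all probes). It was 19 with the raw median signal scaled (15.04%), 11 with sex as a covariate (11.8%) and 8 with slide as a block (12.3%). It was 3 with the raw median signal unscaled (8.44%), an alternative chosen after seeing the data. With the deposited log2 values it was 0 (10.8%), but all member values but 1 sit at the floor and the count tests no gene. Normexp called 7 probes (13.7%) and quantile normalization 4 (11.4%). Of the main 5 probes, 1 was shared without scaling, 2 with the raw median signal scaled and 0 with it unscaled. Sex as a covariate shared 3, slide as a block 5, normexp 1 and quantile normalization 2. On the arrays of scan 1 alone, also chosen afterwards, 1 probe (CA12, lower in EE-treated horses) passed p of 0.005 with the ratio limits, as did 694 of all 43384 probes. Between the groups no member passed an adjusted p of 0.05 in limma under any alternative run. The median difference of 0.18 changed sign to -0.0090 without scaling, which leaves out the scaling term by construction, and to -0.0019 with quantile normalization, and lay between 0.0076 and 0.22 otherwise. The 4 probes between males and females became 64 without scaling (38.6% of members, 14.4% of all probes, 41.9% of all probes never well above background) and 1 with no covariate (6.15% of all probes), and 1 passed the stricter limit without scaling, against 0.689% of all probes and 1.47% of all probes never well above background. Differences below 0 turned above 0 for CA12 (0.088 raw scaled, 0.18 normexp), IFNA1 (0.094, 0.16), RNASE10 (0.077, 0.17) and STK31 (0.073, 0.19), but stayed below 0 with the raw signal unscaled (-0.096, -0.091, -0.11 with limma p = 0.0455, and -0.11). With the deposited values all 4 were 0.19, which is the group difference of the floor and holds no signal of these genes. The 111 undetected genes became 16 under the weaker flag and 172 with 1 array allowed. They were 114 with outlier spots left out (CSN3, FABP2 and LOC100061179 added), 157 on control arrays alone, 148 on EE-treated arrays alone and 101 without LOC symbols. Unless stated, the cause was not tested. Signal at the background level limits every value here.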
